A study of Mus musculus with 15 samples.

Results

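In the liver RNA-seq data examined here, 9 genes differed between Stab1-/- and wildtype mice in the same direction at 2 weeks of age and at the embryonic stage E17.5. They are Gm4788, C730036E19Rik, 9130409I23Rik, Camk2b, Gm3002, Acox2, Ddhd1, Prune2 and Tmem180, and they make up 9 of the 19464 rows of the deposited table, with 1 row each. The genes were chosen by their measured difference between the genotypes at both stages, so the direction and the size of that difference describe the choice and were not tested again. In Stab1-/- livers, 5 of the genes were lower (Gm4788, C730036E19Rik, Camk2b, Ddhd1 and Tmem180) and 4 were higher (9130409I23Rik, Gm3002, Acox2 and Prune2).

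Stab1 encodes Clever-1, a scavenger receptor of endothelial cells and macrophages, and the study compared livers with and without it. The groups were 4 Stab1-/- and 4 wildtype mice at 2 weeks, and 3 Stab1-/- and 4 wildtype samples at E17.5, all liver and all labelled with the mixed strain background C57BL/6N;129SvJ. The study describes the knockout as one of the whole animal, with no restriction to a cell type. Neither the labels nor the methods say whether the wildtype mice were littermates, which parts of the genome came from which strain, or whether fetal livers were pooled, and if samples are not separate animals the p-values below measure only the spread between these samples.

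The 9 genes have no single pathway in common. Acox2 and Ddhd1 encode lipid enzymes, one in peroxisomes and one acting on phospholipids, and Gm4788 belongs to the complement factor H-related family, whose members are secreted by hepatocytes and bind complement fragments. C730036E19Rik is a long non-coding RNA of liver, Camk2b is a kinase subunit best known from neurons, and Tmem180 belongs to the major facilitator family of membrane carriers. Mice of mixed strain background can carry different alleles at a locus linked to a deleted gene, and a gene can also respond to the loss of the receptor. Strain variation and a response to the deletion cannot be told apart in these groups, since the labels give the same background for all of them and no genotype at other loci.

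Several quantities per row and library are in the table that the authors deposited: unique reads as counts, coverage as the percentage of a gene model with at least 1 read on it, and RPKM, the reads scaled to gene length and to the reads counted in the library. Between 9659 and 10964 kiloreads were counted per library, and a gene with a single read had 49 bases covered in 99.99% of 15293 such cases. Stab1 itself had 68 to 119 reads in Stab1-/- and 579 to 941 in wildtype libraries at 2 weeks, and 301 to 443 against 1244 to 1868 at E17.5. Reads of Stab1 still covered 26.2% to 41.1% of its gene model in Stab1-/- libraries at 2 weeks and 79.4% to 86.0% at E17.5, against 81.2% to 93.6% and 98.1% to 98.5% in wildtype. At 2 weeks the 6 hepatocyte markers found summed to 58325 to 74236 RPKM in Stab1-/- and 74388 to 94136 RPKM in wildtype libraries. These ranges did not overlap. The E17.5 sums were 55231 to 65638 RPKM in Stab1-/- and 50770 to 57325 RPKM in wildtype libraries. At E17.5, 5 of 7 libraries held both Xist and the sum of 4 Y-linked genes above 10 RPKM. Of the others, Stab1-/- replicate 3 held Xist at 118 and the Y-linked sum at 0.317 RPKM. Wildtype replicate 4 held Xist at 0.621 and the Y-linked sum at 60.3 RPKM. All 8 libraries at 2 weeks held Xist between 44.8 and 111 RPKM and a Y-linked sum at or below 0.036 RPKM. One wildtype E17.5 library (replicate 2) had 2020 RPKM of 5 pancreatic acinar markers, against 0.395 to 196 in the other E17.5 libraries.

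Promoters are shown for the 4 genes with the greatest relative differences or the altered coverage described below, since these are the sequences a reader would inspect for a liver or a housekeeping type of start. Each covers 250 bases before and 50 bases after the start site, is written 5′ to 3′ on the strand of the gene, and comes from RefSeq on GRCm38.p6. The table matched 8 of the 9 genes. Capitals mark matches to GTTAAT (part of the site of the hepatocyte factor HNF1) or GGGCGG (the GC box) on either strand, and the other searched motifs were the TATA box as TATAAA, the CCAAT box as CCAAT, the core of an HNF4 site as CAAAGTCCA and the E-box as CACGTG. The Gm4788 promoter lies at chr1:139781190-139781489 (minus strand), that of C730036E19Rik at chr1:151137784-151138083 (plus), that of 9130409I23Rik at chr1:181050987-181051286 (plus) and that of Camk2b at chr11:6065699-6065998 (minus).
Gm4788: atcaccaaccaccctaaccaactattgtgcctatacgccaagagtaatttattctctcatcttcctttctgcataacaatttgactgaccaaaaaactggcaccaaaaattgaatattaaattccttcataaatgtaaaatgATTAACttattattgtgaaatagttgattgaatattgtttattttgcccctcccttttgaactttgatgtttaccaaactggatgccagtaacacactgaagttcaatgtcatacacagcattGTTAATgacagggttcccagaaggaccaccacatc
C730036E19Rik: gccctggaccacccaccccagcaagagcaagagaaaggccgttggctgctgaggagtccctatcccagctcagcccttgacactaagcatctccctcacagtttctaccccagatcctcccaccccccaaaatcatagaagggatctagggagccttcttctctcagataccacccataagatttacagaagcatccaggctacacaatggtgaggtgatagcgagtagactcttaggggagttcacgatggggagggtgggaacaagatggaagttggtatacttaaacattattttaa
9130409I23Rik: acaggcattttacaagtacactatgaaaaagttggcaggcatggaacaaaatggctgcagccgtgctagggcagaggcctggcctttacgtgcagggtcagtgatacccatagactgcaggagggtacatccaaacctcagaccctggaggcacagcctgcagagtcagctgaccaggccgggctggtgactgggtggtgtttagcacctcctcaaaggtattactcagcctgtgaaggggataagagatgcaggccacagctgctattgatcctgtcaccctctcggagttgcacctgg
Camk2b: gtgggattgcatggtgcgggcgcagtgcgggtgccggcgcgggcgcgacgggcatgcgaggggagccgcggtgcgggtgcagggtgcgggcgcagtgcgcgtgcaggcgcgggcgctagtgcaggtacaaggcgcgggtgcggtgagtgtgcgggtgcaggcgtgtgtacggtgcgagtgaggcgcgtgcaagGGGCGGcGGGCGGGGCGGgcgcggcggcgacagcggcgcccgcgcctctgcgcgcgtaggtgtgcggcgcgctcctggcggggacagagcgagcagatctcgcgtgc
The Gm4788 promoter was 35.3% GC with 1 CpG and held GTTAAT at bases -108 and 16 from the start, a motif in 7.10% of the 32851 promoters of this length. The Camk2b promoter was 77.3% GC with 51 CpG and held 3 GC boxes, at -57, -50 and -45, of which the last pair share 1 base. GC boxes were in 35.7% of all promoters. The windows of C730036E19Rik and 9130409I23Rik, 50.7% and 54.7% GC with 3 and 4 CpG, held none of the 6 motifs, and the median of all promoters was 52.7% GC with 7 CpG. Of the genes not printed, Ddhd1 (76.0% GC) had 4 GC boxes, Prune2 (72.7%) had 2 GC boxes and 1 CCAAT box, Tmem180 (58.0%) had 1 of each, and of the 2 listed Acox2 starts (57.3% and 54.0%) the second had 1 CCAAT box. The CCAAT box was in 37.4%, the TATA box in 13.6%, the E-box in 7.15% and the HNF4 core in 0.475% of all promoters.

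The level of each gene in each library is plotted first. In all 9 genes the Stab1-/- and wildtype libraries did not overlap in RPKM at either stage, which held for 14.8% of the 12353 rows tested at both stages at 2 weeks, for 12.1% at E17.5, and in the same direction at both for 98 rows (0.793%), 46 higher and 52 lower. Nothing is read from this for the 9 genes, since they were chosen for it.

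**Figure D1:**
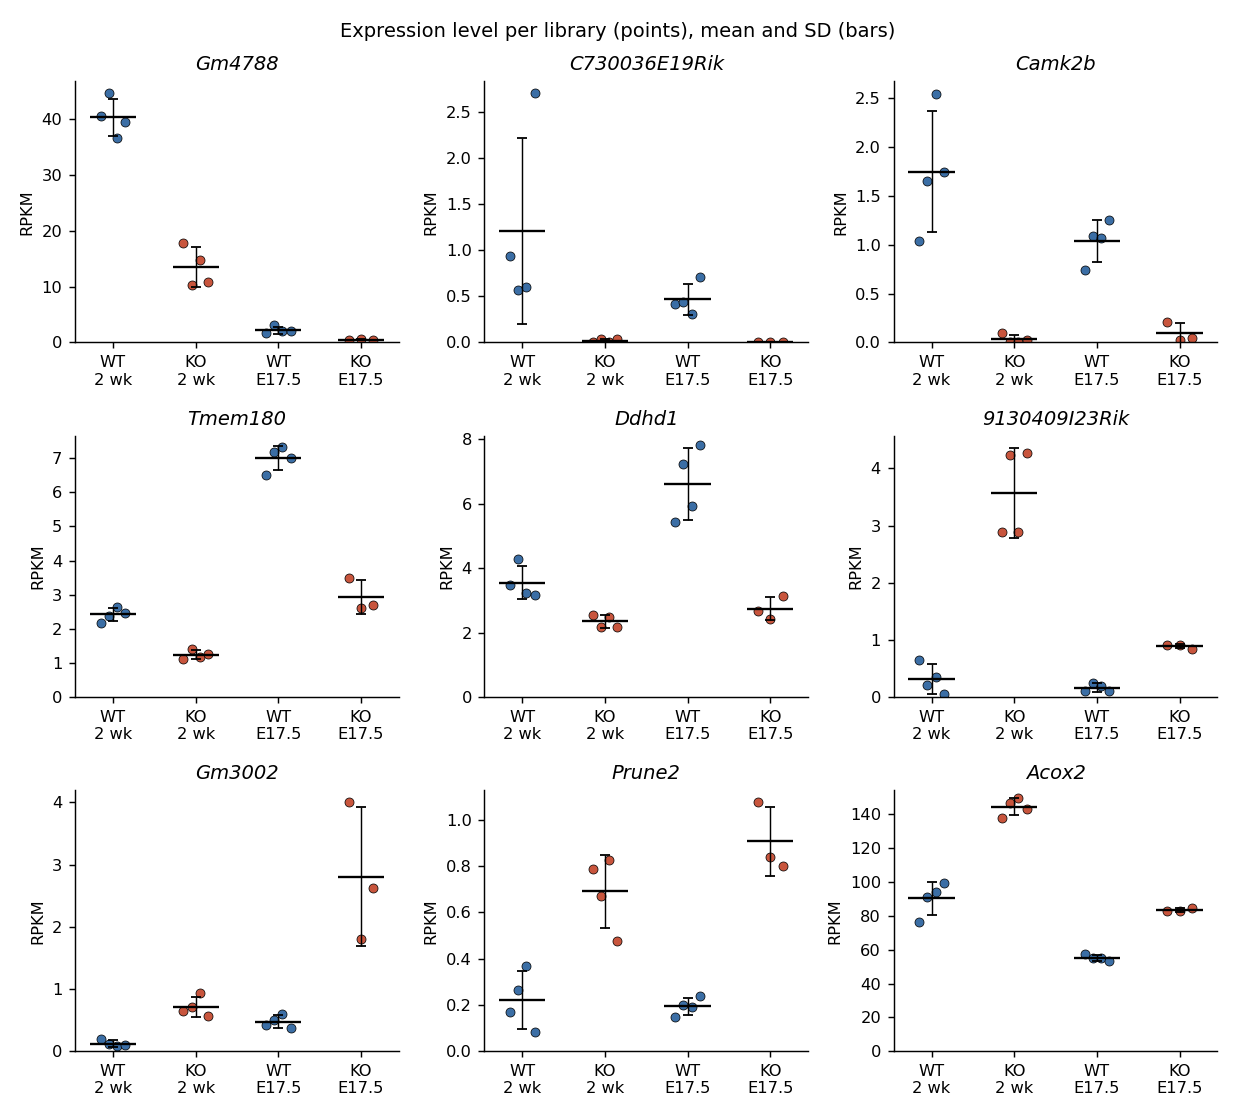
Level of the 9 genes in RPKM (vertical axes, each from 0) in each wildtype (WT, blue) and Stab1-/- (KO, red) library at 2 weeks and E17.5, with the mean (line) and SD (bar) of the group. In each panel all Stab1-/- points lie on one side of the wildtype points of their stage, and Acox2 reaches 149 RPKM while Prune2 stays below 1.1 RPKM.

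Gm4788, complement factor H-related protein C by its RefSeq synonym, is the first of the secreted proteins. The gene spans chr1:139697623-139781243 on the minus strand (GENCODE vM21, GRCm38). At 2 weeks the Stab1-/- libraries had 509, 314, 413 and 306 reads, against 1227, 1276, 1122 and 1214 in wildtype. The E17.5 libraries had 14, 18 and 14 reads against 52, 93, 67 and 61. The highest Stab1-/- library therefore stayed below the lowest wildtype library at both stages, by a wide margin at 2 weeks. The level was 13.5 ± 3.56 RPKM (SD, n = 4) in Stab1-/- and 40.3 ± 3.31 RPKM (SD, n = 4) in wildtype livers at 2 weeks, and 0.505 ± 0.0790 (SD, n = 3) against 2.21 ± 0.609 RPKM (SD, n = 4) at E17.5. The log2 fold change was -1.68 (standard error 0.15) at 2 weeks and -2.06 (standard error 0.27) at E17.5.

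The reads of Gm4788 also covered less of the gene model in Stab1-/- livers. Coverage in the 4 Stab1-/- libraries at 2 weeks was 38.6%, 36.1%, 36.2% and 33.1%, against 95.2%, 94.4%, 94.8% and 95.2% in wildtype. At E17.5 it was 10.9%, 17.3% and 11.2% against 52.9%, 75.8%, 58.2% and 56.8%. Because coverage falls when there are fewer reads, each value was set beside rows of the same library with read density within 25% and length within a factor of 2. Those rows had a median coverage of 92.0% to 95.8% in the Stab1-/- libraries at 2 weeks, so Gm4788 had a median of 0.385 of it and stood at or below the 0.697 percentile of 1011 to 1265 such rows. In wildtype livers at 2 weeks the ratio was 0.978, and at E17.5 it was 0.577 in Stab1-/- and 0.988 in wildtype livers.

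In bases, the Stab1-/- reads at 2 weeks fell on 956 to 1115 bases of the 2887 base gene model, against 2726 to 2749 bases in wildtype. Within the covered bases the density was 301 to 457 reads per kilobase in Stab1-/- and 410 to 468 in wildtype libraries at 2 weeks, and 36.0 to 44.4 against 34.1 to 42.5 at E17.5, so it overlapped between genotypes at both stages. The lower read count of Gm4788 thus went with a smaller covered stretch. Which exons were covered cannot be read from a percent. Among the 7607 rows with at least 100 reads in each 2-week library, the fall of 58.9 points was the largest, and the next was 21.7 points (Hsd17b13, a lipid droplet enzyme). Of these rows, 38 were lower and 25 were higher in mean coverage by at least 10 points, and 23 (0.302%) were lower without overlap at both stages. These counts over the table were added after the data were seen.

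Factor H-related genes have near-identical stretches, and only uniquely mapped reads were counted, so reads that fit several copies may be missing from Gm4788. Cfhr2, which encodes another factor H-related protein 0.0229 Mb from Gm4788 and was singled out after its values were seen, had coverage of 75.6% to 78.8% in Stab1-/- and 85.1% to 87.1% in wildtype libraries at 2 weeks, and 67.0% to 71.5% against 84.0% to 86.3% at E17.5. Its level was 203 ± 33.4 against 195 ± 73.7 RPKM (SD, n = 4 each) at 2 weeks. At E17.5 it was 29.8 ± 2.17 (SD, n = 3) against 48.2 ± 9.25 RPKM (SD, n = 4). The E17.5 libraries did not overlap between genotypes, which held for 12.1% of the rows tested at both stages. None of the 8 tested genes of the list of complement regulators and their relatives was called at either stage, and their median log2 fold change was 0.06 at 2 weeks and -0.09 at E17.5.

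**Figure D2:**
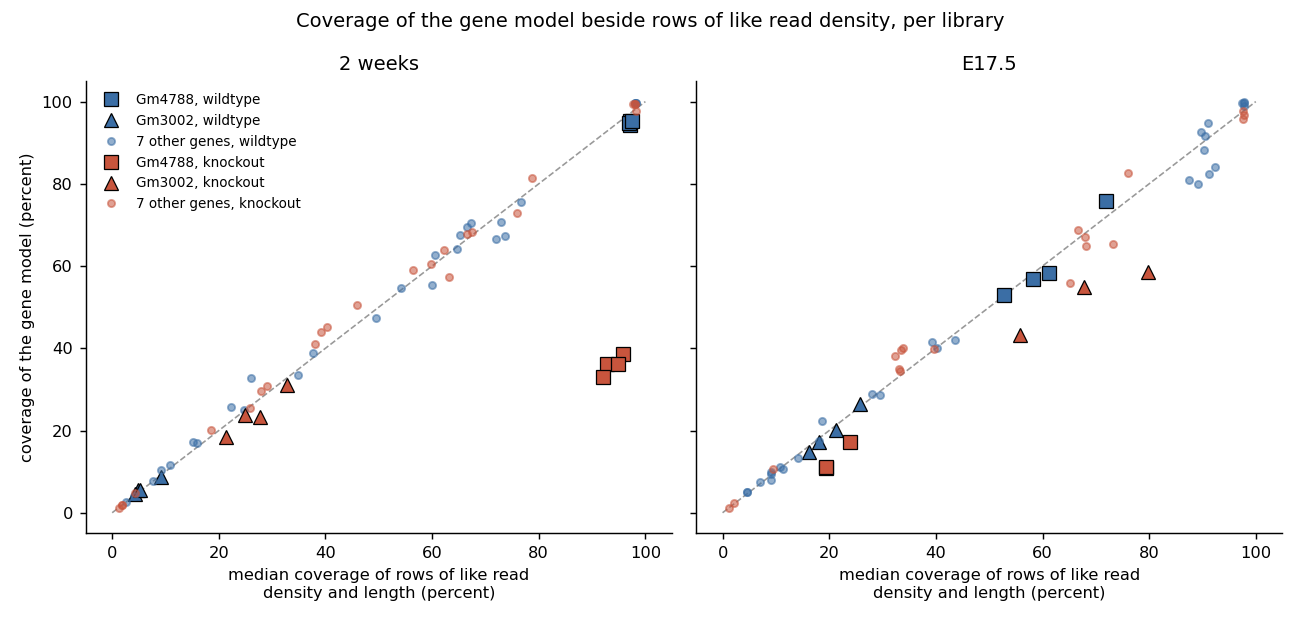
Coverage of each of the 9 genes (vertical axis, percent of the gene model) against the median coverage of rows of like read density and length in the same library (horizontal axis, percent), at 2 weeks (left) and E17.5 (right), with 1 point per gene and library that had reads. The Gm4788 squares of Stab1-/- libraries (red) at 2 weeks lie at 33.1% to 38.6% where like rows have 92.0% to 95.8%, and the Gm3002 triangles of Stab1-/- libraries at E17.5 also lie under the dashed line of equality.

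C730036E19Rik, a long non-coding RNA with the RefSeq synonym lncLSTR, lies at chr1:151138034-151142345 on the plus strand, 11.4 Mb from Gm4788. It was nearly absent from Stab1-/- libraries. They had 0, 1, 0 and 1 reads at 2 weeks against 26, 15, 17 and 76 in wildtype, and 0, 0 and 0 reads at E17.5 against 12, 12, 9 and 20. One wildtype library at 2 weeks held more than the other wildtype libraries together. The summed reads differed by a ratio of 64.0 at 2 weeks, 2 against 134 reads, with a 95% interval of 17.4 to 534 that covers counting error only. At E17.5, against a floor of 3 reads per library, the RNA was at least 4.35-fold lower in Stab1-/- livers. Without wildtype replicate 4, which held 76 of the 134 reads, the fitted log2 fold change at 2 weeks was -4.98, against -5.78 with it. Fitted log2 fold changes of this gene depend on the count added to zeros and are no bound. The coverage was 0% to 1.86% in Stab1-/- and 24.9% to 70.4% in wildtype libraries at 2 weeks, near the median of like rows in each group with reads (ratios 0.992 to 1.03).

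9130409I23Rik, an uncharacterised protein-coding gene, is the third member on chromosome 1 (chr1:181051237-181060667, plus strand). It had 54, 85, 53 and 79 reads in Stab1-/- and 13, 4, 7 and 1 reads in wildtype libraries at 2 weeks. The E17.5 counts were 18, 18 and 17 against 2, 5, 4 and 2. Stab1-/- libraries were thus above every wildtype library, and the wildtype counts were near the floor. The summed reads were 11.3-fold higher at 2 weeks (271 against 25 reads, 95% interval 7.52 to 17.8) and 5.53-fold higher at E17.5 (53 against 13 reads, 2.98 to 11.1), with intervals for counting error only. The levels were 3.57 ± 0.789 against 0.316 ± 0.256 RPKM (SD, n = 4 each) at 2 weeks. Coverage rose with the reads, from 2.58% to 32.8% in wildtype to 67.9% to 81.5% in Stab1-/- libraries at 2 weeks, with ratios to like rows of 1.13 and 1.02.

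Ifi202b, an interferon-inducible gene that lies 7.07 Mb from 9130409I23Rik and 22.8 Mb from C730036E19Rik, had no read in any wildtype library and 51 to 135 reads in the Stab1-/- libraries at 2 weeks and 46 to 116 at E17.5. It was one of 4 further genes that differed alike at both stages.

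Acox2, the peroxisomal oxidase that shortens the side chains of bile acid intermediates and branched fatty acids, was the most abundant of the 9 genes. It lies at chr14:8225511-8259353 on the minus strand, 22.9 Mb from Stab1. At 2 weeks it had 3492, 3982, 3709 and 3586 reads in Stab1-/- and 2056, 2321, 2574 and 2718 in wildtype libraries. At E17.5 it had 2246, 2223 and 2311 reads against 1594, 1485, 1551 and 1459. The Stab1-/- libraries were close together and all above wildtype at both stages. Levels were 144.1 ± 4.996 against 90.1 ± 9.77 RPKM (SD, n = 4 each) at 2 weeks and 83.4 ± 1.15 (SD, n = 3) against 55.2 ± 1.86 RPKM (SD, n = 4) at E17.5. The ratios of these mean RPKM were 1.60 at 2 weeks and 1.51 at E17.5. In the fits, which scale libraries otherwise, the differences were 1.497-fold and 1.58-fold (log2 0.58, standard error 0.11, and 0.66, standard error 0.08).

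Although Acox2 had more reads in Stab1-/- livers, slightly less of its gene model was covered. Coverage was 97.7%, 99.5%, 99.4% and 99.3% in Stab1-/- against 99.7%, 99.6%, 99.6% and 99.8% in wildtype libraries at 2 weeks, and 96.8%, 97.8% and 95.9% against 98.8%, 99.7%, 99.6% and 99.9% at E17.5. The genotypes did not overlap at either stage, so Acox2 is among the 23 rows counted above, with mean coverage of 99.0% against 99.7% at 2 weeks and 96.8% against 99.5% at E17.5.

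Among the 22 peroxisomal beta-oxidation genes and carriers tested, 1 was called at 2 weeks and none at E17.5. It was Baat, which joins bile acids to taurine and glycine, at 79.5 ± 15.7 against 33.8 ± 12.3 RPKM at 2 weeks (SD, n = 4 each; log2 1.15, standard error 0.22, edgeR adjusted p = 0.0188). At E17.5 Baat was at 6.83 ± 0.386 (SD, n = 3) and 7.26 ± 0.543 RPKM (SD, n = 4; log2 -0.03, edgeR adjusted p = 0.932). The list had a median of -0.12 at 2 weeks, where all rows tested had -0.01, and of 0.07 at E17.5, where they had 0.00. Acox3, another oxidase of the same family, was at 4.22 ± 0.388 against 3.99 ± 0.346 RPKM at 2 weeks (SD, n = 4 each) and was not called.

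Ddhd1, a phospholipase that prefers phosphatidic acid, lies at chr14:45588467-45658143 on the minus strand, 14.4 Mb from Stab1. It had 130, 120, 125 and 110 reads in Stab1-/- and 190, 221, 179 and 176 in wildtype libraries at 2 weeks. The E17.5 counts were 146, 132 and 172 against 304, 394, 339 and 436. The nearest libraries of the genotypes differed 1.25-fold in RPKM at 2 weeks and 1.74-fold at E17.5. The log2 fold change was -0.69 (standard error 0.12) at 2 weeks and -1.21 (standard error 0.14) at E17.5, and levels were 2.35 ± 0.194 against 3.55 ± 0.511 RPKM (SD, n = 4 each) and 2.74 ± 0.352 (SD, n = 3) against 6.62 ± 1.12 RPKM (SD, n = 4). The gene overlaps Gm15601 on the other strand, and since strand-specific counting is not stated, reads of both cannot be told apart. None of 16 phosphatidic acid enzymes tested at 2 weeks, or of 17 at E17.5, was called, and the related enzyme Ddhd2 was at 2.57 ± 0.458 against 2.57 ± 0.486 RPKM at 2 weeks (SD, n = 4 each).

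Gm3002 is the third member on chromosome 14, at chr14:3810074-3966518 on the plus strand, 4.26 Mb from Acox2 and 27.2 Mb from Stab1. It is described as an alpha-takusan pseudogene and lies among many similar copies, 4 of which overlap it on the same strand, so its reads cannot be assigned to it with certainty. It had 34, 40, 48 and 29 reads in Stab1-/- and 11, 6, 5 and 6 in wildtype libraries at 2 weeks. The E17.5 counts were 223, 100 and 147 against 24, 28, 35 and 21. Both genotypes were higher at E17.5, and Stab1-/- was above wildtype at each stage. The log2 fold change was 2.38 (standard error 0.28) at 2 weeks and 2.61 (standard error 0.27) at E17.5. Coverage in the Stab1-/- libraries at E17.5 was 58.7%, 43.3% and 54.9%, with a median of 0.776 of that of like rows. Apart from Gm4788 in Stab1-/- livers at both stages, this was the only group of 35 with a ratio under 0.8, and with like rows taken within 50% of the read density its ratio was 0.808 and not under 0.8. The other 7 genes lay between 0.893 and 1.19 in their 27 groups.

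Camk2b, the beta subunit of the calcium and calmodulin-dependent kinase, lies at chr11:5969644-6066362 on the minus strand. It had 4, 0, 0 and 1 reads in Stab1-/- and 44, 66, 109 and 75 in wildtype libraries at 2 weeks. At E17.5 it had 9, 1 and 2 reads against 32, 46, 47 and 54. The gene was thus read in wildtype liver and almost not in Stab1-/- liver. The summed reads were lower by a ratio of 56.2 at 2 weeks (5 against 294, 95% interval 23.8 to 174) and 10.99 at E17.5 (12 against 179, 6.14 to 21.7), with intervals for counting error only. Of the 5 reads at 2 weeks, 4 came from Stab1-/- replicate 1, and without it the fitted log2 fold change was -7.34, against -5.77 with it.

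The Stab1-/- E17.5 library with 9 Camk2b reads (replicate 1) also had the highest sum of the 5 neuron markers, 6.55 RPKM, against 0.415 to 0.912 RPKM in the other E17.5 libraries, and their part in these reads was not tested. Without that library the log2 fold change at E17.5 was -4.69, against -3.36 (standard error 0.48) with it. At 2 weeks the neuron markers summed to 2.04 to 3.38 RPKM in Stab1-/- and 1.78 to 2.46 RPKM in wildtype libraries, while Camk2b was at 0.0315 ± 0.0476 and 1.74 ± 0.617 RPKM (SD, n = 4 each). The other subunits did not pass the test. Camk2d was at 3.05 ± 0.429 and 2.66 ± 0.398 RPKM and Camk2g at 4.02 ± 0.580 and 3.73 ± 0.743 RPKM at 2 weeks (SD, n = 4 each). Among the list of calmodulin kinases and calmodulin, 0 of 10 tested at 2 weeks and 0 of 12 at E17.5 were called.

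Prune2, which encodes a protein with a BCH domain, lies at chr19:16956118-17223932 on the plus strand. It had 97, 89, 100 and 58 reads in Stab1-/- and 22, 33, 49 and 11 in wildtype libraries at 2 weeks. The E17.5 counts were 142, 110 and 106 against 20, 26, 26 and 32. The nearest libraries of the genotypes at 2 weeks differed 1.29-fold in RPKM, the narrowest gap among the 4 higher genes, and the gap was 3.34-fold at E17.5. The log2 fold change was 1.54 (standard error 0.32) at 2 weeks and 2.28 (standard error 0.18) at E17.5, at levels below 1.1 RPKM throughout. None of 4 BCH domain genes tested was called at either stage.

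Tmem180, now named Mfsd13a, lies at chr19:46341121-46375252 on the plus strand, 29.1 Mb from Prune2, and overlaps the gene 2310034G01Rik on the other strand. It had 25, 34, 26 and 28 reads in Stab1-/- and 52, 54, 64 and 60 in wildtype libraries at 2 weeks. At E17.5 it had 84, 62 and 65 reads against 160, 171, 183 and 171. The nearest pair of libraries from the genotypes differed 1.55-fold in RPKM at 2 weeks and 1.86-fold at E17.5. The log2 fold change was -1.05 (standard error 0.18) at 2 weeks and -1.20 (standard error 0.13) at E17.5. None of 14 other Mfsd genes tested at either stage was called.

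In the fits over all rows (edgeR's quasi-likelihood test, a call being an adjusted p under 0.05), all 9 genes were called at both stages, where the choice of the genes used the same contrasts and no support is taken from it. At 2 weeks 340 of 12716 rows were called (2.67%), 0.936% higher and 1.74% lower in Stab1-/-. That split depends on the scaling, since with library totals in place of TMM factors 137 rows were higher and 118 lower, against 119 and 221. At E17.5 49 of 13388 were called (0.366%), 0.194% higher and 0.172% lower (26 and 23 rows, or 22 and 32 with library totals). Only 13 of the 12353 rows tested at both stages were called at both with the same sign (0.105%), 6 higher and 7 lower. Besides the 9 genes they were Stab1, Ifi202b, Scara5, a ferritin and scavenger receptor gene (log2 2.28, standard error 0.45, at 2 weeks and 1.81, standard error 0.28, at E17.5), and Rpl26, a ribosomal protein gene (log2 -5.42, standard error 0.23, and -5.47, standard error 0.78) that has many near-identical copies, which makes its unique reads uncertain. Without Stab1-/- E17.5 replicate 3, 7 rows were called alike and 9130409I23Rik, C730036E19Rik, Camk2b and Gm4788 were not among them, with fitted log2 values at E17.5 of 2.52, -6.71, -3.04 and -1.99 against 2.48, -6.70, -3.36 and -2.06 with it.

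**Figure D3:**
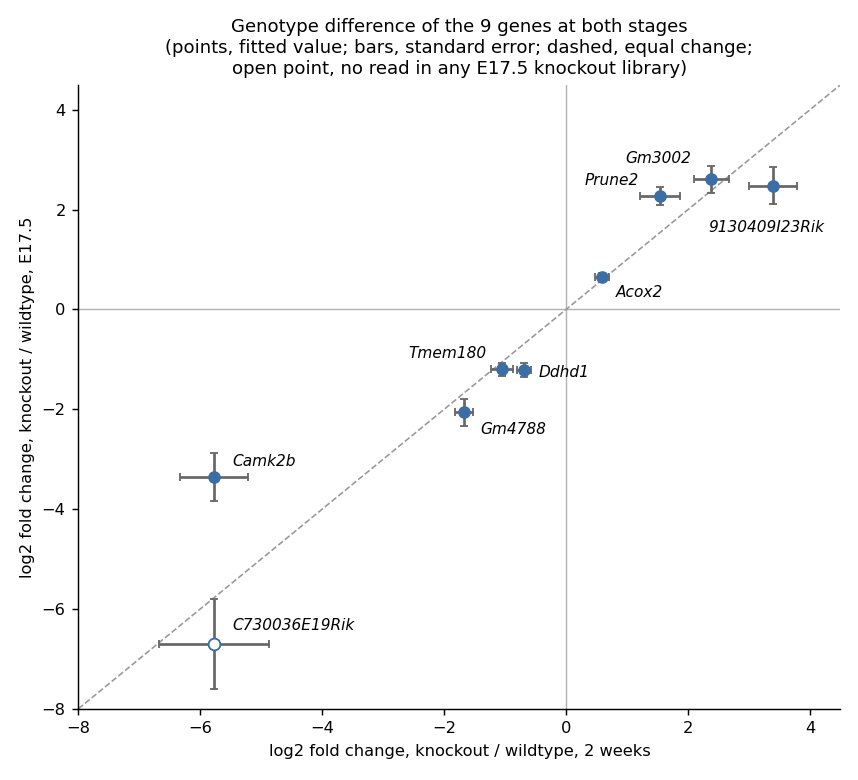
Fitted log2 fold change of Stab1-/- over wildtype at 2 weeks (horizontal) and at E17.5 (vertical) for the 9 genes, with standard errors as bars and equality as the dashed line. Acox2 (0.58 and 0.66) and Tmem180 (-1.05 and -1.20) lie near the line, Camk2b (-5.77 and -3.36) lies off it, and C730036E19Rik (open point) depends on the count added to zeros.

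The size of the difference was then set side by side for the stages. From 2 weeks to E17.5 the log2 fold change moved by 0.07 (standard error 0.14) for Acox2, -0.15 (0.22) for Tmem180, 0.22 (0.39) for Gm3002 and -0.38 (0.31) for Gm4788, each within 1.5 times its standard error. With library totals in place of TMM factors Acox2 was at 0.68 at 2 weeks and 0.60 at E17.5, so the sign of its move depends on the scaling. C730036E19Rik, at -0.93 (1.28), depends on the count added to zeros. It moved by -0.52 (0.18) for Ddhd1, 0.74 (0.37) for Prune2, -0.91 (0.54) for 9130409I23Rik and 2.41 (0.73) for Camk2b. These differences were not tested.

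All 13 rows called alike lay on 4 of the 20 chromosomes examined: 4 on chromosome 1, 2 on chromosome 11, 5 on chromosome 14 and 2 on chromosome 19. These chromosomes held 2592 (20.98%) of the rows tested at both stages. Chromosome 14, where Stab1 lies, had the highest share of called rows of all 20 at both stages, 7.78% at 2 weeks and 2.85% at E17.5. The shares were 3.25% and 1.15% on chromosome 1, 4.43% and 1.26% on chromosome 19, and 2.62% and 0.271% on chromosome 11, where the shares were near those of all rows. Chromosome 12, which holds none of the 9 genes, had 2.03% and 1.29%, and chromosome 13, which also holds none, had 3.70% at 2 weeks, above chromosome 1, and no call at E17.5. The 9 genes themselves enter these shares.

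**Figure D4:**
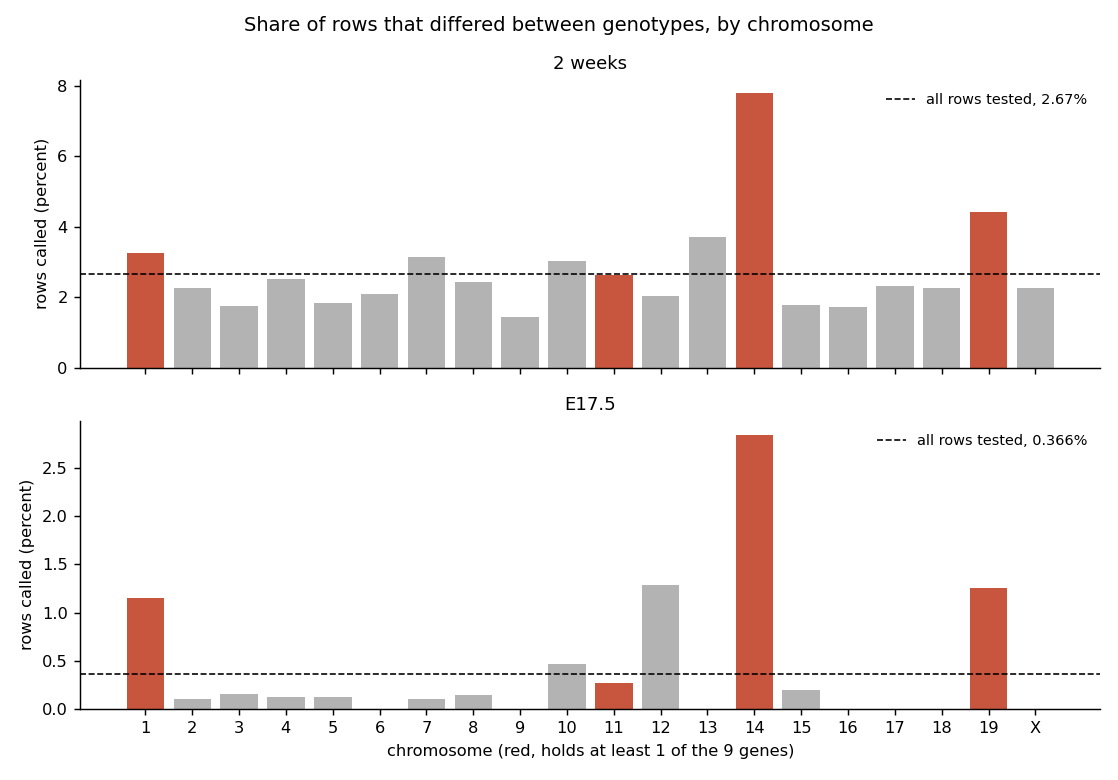
Percent of tested rows called between genotypes on each chromosome (bars from 0) at 2 weeks (top) and E17.5 (bottom), with chromosomes that hold any of the 9 genes in red and the share over all rows as the dashed line. Chromosome 14 stands highest in both panels, at 7.78% and 2.85%, and chromosome 11 lies at or below the line in both.

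The neighbours of the 9 genes were then counted, since position was not part of the choice. These shares are given as a description. Within 5 Mb, 8 of 354 tested neighbours were called at 2 weeks (2.26%, with 2.67% over all rows) and 6 of 371 at E17.5 (1.62%, with 0.366% over all rows). Within 20 Mb the shares were 4.70% and 1.38%, and within 1 Mb 3.23% (4 of 124) and 1.55% (2 of 129). The 20 Mb shares include Stab1 itself, 14.4 Mb from Ddhd1, and Ifi202b, 7.07 Mb from 9130409I23Rik, both called at both stages. A neighbour near several of the genes was counted once. No neighbour of 9130409I23Rik was called at either stage, of 55 and 58 tested.

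Some called neighbours differed in the direction opposite to the member beside them. Next to Acox2, which was higher, Abhd6, a monoacylglycerol lipase 0.169 Mb away, was lower at 2 weeks (6.07 ± 0.478 against 9.68 ± 1.68 RPKM, SD, n = 4 each; edgeR adjusted p = 0.0170), and so was Dnase1l3, a secreted nuclease 0.231 Mb away (13.7 ± 0.761 against 20.01 ± 3.31 RPKM; edgeR adjusted p = 0.0328). Next to Prune2, which was higher, Gcnt1, an enzyme that branches O-glycans 0.102 Mb away, was lower at E17.5 (6.13 ± 1.13, SD, n = 3, against 19.3 ± 2.14 RPKM, SD, n = 4; log2 -1.59, edgeR adjusted p = 0.00113). D030056L22Rik, 1.49 Mb from Prune2, was lower at E17.5 (log2 -0.87, edgeR adjusted p = 0.0110). Gda, guanine deaminase, 4.17 Mb from Prune2, was higher at 2 weeks and lower at E17.5 (log2 0.83 and -0.97, edgeR adjusted p = 0.0116 and 0.00934).

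The remaining called neighbours are given here. Since some opposite cases were named above, the direction of these says nothing about the neighbours as a set. Over both stages together, the direction of the member and the opposite direction were about as frequent, but the stages differed. At 2 weeks only Abhd6 and Dnase1l3 were opposite to the member, and at E17.5 only Fam129a shared its direction. Fam129a, 0.429 Mb from C730036E19Rik, was at 2.87 ± 0.405 (SD, n = 3) against 10.1 ± 2.01 RPKM (SD, n = 4) at E17.5 (log2 -1.76, edgeR adjusted p = 0.00263), and Glul, glutamine synthetase, 2.76 Mb away, was at 174 ± 15.04 against 292 ± 36.9 RPKM at 2 weeks (SD, n = 4 each; edgeR adjusted p = 0.00618). At 2 weeks Bmp4, a growth factor 0.725 Mb from Ddhd1 (log2 -0.82), Sfxn2, a mitochondrial carrier 0.198 Mb from Tmem180 (log2 -0.56), Tcn2, the vitamin B12 carrier 2.04 Mb from Camk2b (log2 -0.60), and Nav1, 4.09 Mb from Gm4788 (log2 -1.02), were lower with edgeR adjusted p between 0.00392 and 0.0475. At E17.5 Nr5a2, a nuclear receptor of bile acid synthesis 2.74 Mb from Gm4788 (log2 0.51, edgeR adjusted p = 0.0484), and Rrp12, a ribosome assembly factor 4.44 Mb from Tmem180 (log2 0.81, edgeR adjusted p = 0.0293), were higher while the members beside them were lower.

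The stage at which the genes are used was examined in the wildtype livers alone, a contrast that the choice of the genes did not use. The same wildtype libraries entered the genotype differences used for the choice, so these values are not independent of it. From E17.5 to 2 weeks, 7 of the 8 genes tested differed, 4 higher and 3 lower, where 71.9% of all 13369 rows did, 34.9% higher and 37.0% lower. With library totals in place of TMM factors the median of all rows moved by -0.36 on the log2 scale, and 3104 rows were called higher and 6834 lower against 4667 and 4948, while the same 7 genes kept their directions. Gm4788 rose most, from 2.21 ± 0.609 to 40.3 ± 3.31 RPKM (SD, n = 4 each; log2 4.55, standard error 0.16, edgeR adjusted p = 2.26e-10). Acox2 rose from 55.2 to 90.1 RPKM (log2 1.07, standard error 0.11, edgeR adjusted p = 3.05e-06), and so did Camk2b (log2 1.12, standard error 0.26, edgeR adjusted p = 0.00214) and C730036E19Rik (log2 1.73, standard error 0.51, edgeR adjusted p = 0.00902). For C730036E19Rik, limma on log2(RPKM + 0.1) or log2(RPKM + 1) gave 0.97 and 0.50 without a call, and without wildtype 2-week replicate 4 the edgeR value was 0.95 and still called.

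Tmem180 fell from 7.01 ± 0.349 to 2.42 ± 0.192 RPKM (SD, n = 4 each; log2 -1.17, standard error 0.12, edgeR adjusted p = 2.75e-06). Ddhd1 (log2 -0.54, standard error 0.13, edgeR adjusted p = 0.00250) and Gm3002 (log2 -1.53, standard error 0.29, edgeR adjusted p = 0.000469) fell too. Prune2 was at 0.194 ± 0.0372 and 0.221 ± 0.124 RPKM (SD, n = 4 each; log2 0.55, standard error 0.36, edgeR adjusted p = 0.189) and was called (log2 0.83) only without wildtype 2-week replicate 4. 9130409I23Rik had too few wildtype reads for the test. The direction with genotype did not follow the direction with stage: of the 5 genes lower in Stab1-/- livers, Gm4788, Camk2b and C730036E19Rik rose and Ddhd1 and Tmem180 fell from E17.5 to 2 weeks.

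**Figure D5:**
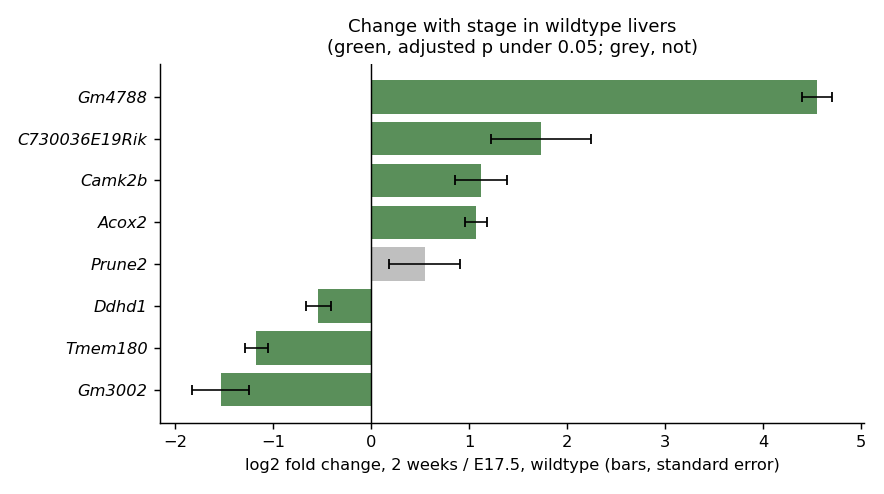
Fitted log2 fold change of wildtype livers at 2 weeks over those at E17.5 for the 8 genes tested, with standard errors as bars, in green where the edgeR adjusted p was under 0.05. Gm4788 has the longest bar at 4.55, Gm3002, Tmem180 and Ddhd1 lie below 0, and Prune2 (grey) at 0.55 did not pass.

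Related genes were compared over the same stages. Among the peroxisomal genes 20 of 22 were higher at 2 weeks in wildtype and none lower (median log2 2.28), and among complement regulators and their relatives 6 were higher and 2 lower of 8 (median 1.60), with a median of -0.01 over all rows. The calmodulin kinase list had 2 higher and 4 lower of 12, the phosphatidic acid enzymes 5 and 5 of 17, the BCH domain genes 1 and 1 of 4, and the Mfsd genes 7 and 4 of 14. Acox2 and Gm4788 thus moved with stage in the direction of most genes of their lists.

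Per length, the genes spanned a wide range of levels in wildtype livers at 2 weeks. The order was Acox2 (90.1 RPKM), Gm4788 (40.3), Ddhd1 (3.55), Tmem180 (2.42), Camk2b (1.74), C730036E19Rik (1.20), 9130409I23Rik (0.316), Prune2 (0.221) and Gm3002 (0.127). The first 4 did not overlap between libraries, while each of the last 5 overlapped with the gene before it. Acox2 and Gm4788 stood at the 94.1 and 88.1 percentile of the rows tested at both stages, and the other 7 at or below the 34.5 percentile. In Stab1-/- livers at 2 weeks 9130409I23Rik, at 3.57 RPKM, was the third of the order, and Camk2b (0.0315 RPKM) and C730036E19Rik (0.0187 RPKM) were last.

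The rows most like each gene were found by the root mean square difference of log2(RPKM + 0.1), centred on each row, over the 15 libraries and 12344 rows. This is a description, in which all points share libraries and the contrasts used for the choice. Acox2 was most like Thrb, a thyroid hormone receptor gene also on chromosome 14 (difference 0.14, where the spread of Acox2 itself was 0.51), and Lyplal1 (0.16). Ddhd1 was most like Ppp1r3e (0.23) and Syt15 (0.26), both on chromosome 14, and Tmem180 like Cd34 (0.32) and Ppfia4 (0.34). Of these, Thrb was called at E17.5 (log2 0.69, edgeR adjusted p = 0.00827) and Syt15 likewise (log2 -1.63, edgeR adjusted p = 0.0492), and Ppfia4 at 2 weeks (log2 -2.90, edgeR adjusted p = 0.00450).

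The likeness was looser for the other genes. Prune2 was most like Il3ra (0.54) and Colgalt2 (0.57), Gm4788 like Sds, serine dehydratase (0.71), and Cyp4a31, a cytochrome P450 (0.77), and Gm3002 like Morn4 (0.71) and Enpep (0.79). 9130409I23Rik was most like Serpina3b (0.87) and Cyp2c67 (0.99). C730036E19Rik and Camk2b shared Sp110, a nuclear body protein gene of chromosome 1, as the row most like them (0.86 and 0.91), and their next were 2610507I01Rik (0.88) and Stab1 (0.95). Cyp4a31 (log2 -0.53), Il3ra (0.96), Cyp2c67 (1.84) and 2610507I01Rik (-1.96) were called at 2 weeks. Sp110 differed by -2.96 on the log2 scale at 2 weeks (edgeR adjusted p = 0.000322) and by -3.20 at E17.5 (edgeR adjusted p = 0.0678).

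Cell type markers were set beside the genotype differences. At 2 weeks 3 of 5 stellate cell markers were lower in Stab1-/- livers, with sums of 84.9 to 104 RPKM against 122 to 174 in wildtype, and 1 of 5 endothelial and 1 of 3 fetal hepatocyte markers were lower, the latter with sums of 43.3 to 59.1 against 70.2 to 175 RPKM. The 5 granulocyte markers summed to 25.04 to 37.6 RPKM in Stab1-/- and 9.47 to 23.8 RPKM in wildtype libraries at 2 weeks without overlap, and none of the 4 tested was called. Camp, which is among these markers, is listed by the paper as significantly higher in 2-week Stab1-/- livers. The sums of the 6 hepatocyte markers, given above, were lower in Stab1-/- libraries without overlap at 2 weeks, and none of the 6 was called. At E17.5 none of the markers was called. Stab1-/- E17.5 replicate 1, which had the most Gm3002 reads of its group, held 106 RPKM of the cholangiocyte markers against 25.1 to 57.1 and 162 RPKM of the stellate markers against 63.7 to 111 in the other E17.5 libraries, and without it the log2 fold change of Gm3002 was 2.29, against 2.61 with it. Krt19 and Epcam, both among the cholangiocyte markers, are listed by the paper as higher in E17.5 Stab1-/- livers. The same list holds intestinal genes such as Alpi and Fabp2. Gut markers were not examined, and the source of the cholangiocyte and stellate marker reads in this library was not tested. Fewer cells of a type and less RNA per cell cannot be told apart in these samples, and the part of cell composition in the differences of the 9 genes was not tested.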

How the data were processed

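Liver RNA-seq was compared between Stab1-/- and wildtype samples at 2 weeks and E17.5, grouped by the labels. The authors deposited, per gene and library, counts of uniquely mapped reads, RPKM values and coverage in percent of the gene model, and replicates were not pooled in the table. Aligner, counting tool, genome build and strand setting are not given in the sources used here. Reads counted only where unique are lost in near-identical copies. The RPKM were recomputed from the counts and lengths without difference. No replicate pair agreed within sampling noise (lowest chi-square per degree of freedom 5.41).

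Counts were fitted per contrast with edgeR 4.0.16 (quasi-likelihood, TMM factors, filterByExpr at its minimum count 10 and total 15, R 4.3.3), with Benjamini-Hochberg adjustment over all rows tested and a threshold of 0.05. A simulation with 200 genes changed by 2 on the log2 scale recovered 200 at 2 weeks among 12758 genes, with 10 false calls. It gave all genes the same fixed spread and changed only genes above a minimum of mean reads. Smaller changes, low counts and uneven libraries were therefore not covered. DESeq2 1.42.0, limma 3.58.1 on log2(RPKM + 0.1) and log2(RPKM + 1), other scalings, no filter, the replicate number as a block and leaving out each library were the alternatives. Rows were placed by Entrez identifier in GENCODE vM21 (98.7% of 19464). Python 3.11.15, pandas 2.3.3 and numpy 2.4.6 derived the rest. Intervals of summed reads are 95% exact intervals and, like the floor of 3 reads, cover counting error only.

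The 9 genes, the gene lists and the tests were chosen with earlier results of these data known. Genes named in the text are the 9, Stab1, Ifi202b, called genes of the lists (at most 3 a list), called neighbours within 5 Mb (at most 3 a gene and stage), the 2 rows most like each gene, and rows called alike at both stages. Close family members and Hsd17b13 were named in addition. The lists were complement regulators and their relatives, peroxisomal genes, calmodulin kinases, phosphatidic acid enzymes, BCH domain genes and Mfsd genes. Results for some family members are not reported here.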

Additional observations from a re-analysis of the deposited data

Results flagged for a closer look

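Gda, guanine deaminase, 4.17 Mb from Prune2, differed between the genotypes in opposite directions at the 2 stages, with no overlap of libraries at either. At 2 weeks it was at 9.93 to 14.0 RPKM in Stab1-/- and 4.91 to 7.20 RPKM in wildtype livers. At E17.5 it was at 3.55 to 4.18 against 7.07 to 8.92 RPKM. The log2 fold change at E17.5 minus that at 2 weeks was -1.80 (standard error 0.19), and this difference was not tested. It was the only 1 of 43 named genes examined that did so.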

How the results depend on the processing

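No fitted difference of the 9 genes changed sign under any alternative run, but the split of all calls turned with library totals at both genotype contrasts, from 119 higher and 221 lower to 137 and 118 at 2 weeks and from 26 and 23 to 22 and 32 at E17.5. Rows called at 2 weeks numbered 340, and 861 with DESeq2, 219 with limma on log2(RPKM + 0.1) and 116 to 648 when 1 library was left out (lowest without Stab1-/- replicate 1, highest without wildtype replicate 2). At E17.5 they numbered 49, and 230 with DESeq2 and 27 to 46 when 1 library was left out, when 5 to 7 of the 9 genes were called. The 13 rows called alike became 36 with DESeq2 and 7 to 15 when 1 library was left out, lowest without Stab1-/- E17.5 replicate 3. The calls lost in these fits were those of 9130409I23Rik, C730036E19Rik, Camk2b and Gm4788 at E17.5 and of Acox2 and Prune2 at 2 weeks. C730036E19Rik was tested in only 4 of the 7 E17.5 fits with 1 library left out. It had no fitted value there without wildtype replicate 1, 2 or 4. limma lost Ddhd1, and C730036E19Rik with a pseudocount of 1. Called neighbours at 2 weeks (8) became 25 with DESeq2, 15 without the filter, 5 with either limma fit and 3 to 17 when 1 library was left out, and at E17.5 (6) 24 with DESeq2 and 3 to 6. Their share at 2 weeks was 2.26% within 5 Mb, below the 2.67% of all rows, and above it at 3.23% within 1 Mb and 4.70% within 20 Mb, where Stab1 and Ifi202b are included. With a read-density band of 50%, coverage ratios were 1.04 for Gm4788 and 1.02 for Gm3002 in wildtype E17.5 livers and 1.23 for Gm3002 in wildtype 2-week livers, and with Gm3002 at 0.808 in Stab1-/- E17.5 livers 2 groups, not 3, were under 0.8. The cause of these changes was not tested.

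Deviations of same-numbered samples correlated by 0.0229 to 0.203 at 2 weeks, and those of differently numbered samples by -0.258 to 0.283. At E17.5 the ranges were -0.178 to 0.00248 and -0.101 to 0.261. Overlapping ranges from so few samples do not settle whether the replicate numbers pair the samples, and the labels do not say. With the number as a replicate block, 1181 rows were called at 2 weeks and 23 at E17.5, 4 of the 9 genes were called at E17.5, 8 rows were called alike (6 shared with the 13), and called neighbours were 38 and 3. Low counts limit C730036E19Rik, Camk2b and 9130409I23Rik most.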
